A study of Mus musculus with 8 samples.

Results

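Bile acids and the other solutes of bile cross the hepatocyte through a small set of membrane transporters, and 10 of their genes were followed here in liver RNA: Slc10a1 (ENSMUSG00000021135.9), Slco1a1 (ENSMUSG00000041698.12), Slco1b2 (ENSMUSG00000030236.11), Abcb11 (ENSMUSG00000027048.16), Abcb4 (ENSMUSG00000042476.13), Abcc2 (ENSMUSG00000025194.6), Abcc3 (ENSMUSG00000020865.17), Abcc4 (ENSMUSG00000032849.15), Slc51a (ENSMUSG00000035699.9) and Slc51b (ENSMUSG00000053862.7). They were taken by name, each matched to its gene identifier, out of 56953 identifiers in the count data, and all 10 were found. All 10 also passed the filter on low counts, which left 15669 genes to be tested. The libraries came from whole liver of adult male mice kept for 8 weeks on CDHFD, a diet rich in fat and lacking choline. There were 4 Control libraries, labelled WT for genotype, and 4 HSC-PCK1-KO libraries, from mice lacking PCK1, the cytosolic enzyme that makes phosphoenolpyruvate, in hepatic stellate cells. The series design text calls the 4 libraries of a group biological replicates, and all 8 carry the same batch label. The sources used here do not name the Cre driver or the control alleles. No livers from mice on a normal diet were analysed here, so every comparison is between 2 groups on the same diet.

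Hepatocytes take bile acids up from sinusoidal blood, conjugate them and pump them into the bile canaliculus against a steep gradient. Slc10a1 (NTCP) carries conjugated bile acids into the cell together with sodium, and the organic anion transporters Slco1a1 and Slco1b2 take up bile acids, bilirubin and drugs without sodium. On the canalicular membrane Abcb11 (BSEP) exports bile salts, Abcb4 (MDR2) moves phosphatidylcholine into bile, and Abcc2 (MRP2) exports bilirubin glucuronides and other conjugates. Abcc3, Abcc4 and the heterodimer of Slc51a and Slc51b (OST alpha and beta) sit on the basolateral membrane and return bile acids and conjugates to blood, a route known to open in cholestasis. The bile acid receptor FXR (Nr1h4) is known to raise Abcb11, Slc51a and Slc51b, and the male growth hormone pattern is known to maintain Slco1a1 in male mice.

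Library totals ranged from 44695439 to 49477255 counts. Hepatocyte markers were abundant in all 8 libraries, with Alb at 68168 ± 8862 CPM in the Control group and 66613 ± 7413 CPM in the HSC-PCK1-KO group (SD, n = 4 each). CPM is the count scaled to library size after TMM normalization. Pck1 itself stood at 1002, 2012, 551 and 1028 CPM in Control replicates 1 to 4 and at 339, 795, 593 and 948 CPM in HSC-PCK1-KO replicates 1 to 4. The groups overlapped. Hepatocytes express Pck1 strongly, so a stellate cell deletion cannot be checked from whole-liver RNA.

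The transporter genes covered a wide span of transcript levels. Per kilobase of exon, Slc10a1 was the most abundant, at 319 ± 47.9 CPM per kilobase over the 8 libraries (SD, n = 8), followed by Slco1b2 at 234 ± 34.7 and Abcb11 at 112 ± 11.7 CPM per kilobase. Abcc2 at 70.1 ± 7.49, Slco1a1 at 63.5 ± 26.5 and Abcc3 at 58.0 ± 6.81 CPM per kilobase came next, and Abcb4 stood at 35.8 ± 4.04 CPM per kilobase. The 3 remaining basolateral genes were far lower, Slc51b at 1.09 ± 0.53, Abcc4 at 0.34 ± 0.056 and Slc51a at 0.083 ± 0.060 CPM per kilobase. Abcc2 was above Slco1a1 in only 5 of 8 libraries and Slco1a1 was above Abcc3 in only 3 of 8, so those neighbours did not differ beyond their spread. Slc10a1 was above Slco1b2 in 8 of 8 libraries, although their ranges over the libraries overlapped. All the other neighbours kept their order in 8 of 8 libraries without overlap. These orders are for the union of exons, and several places depended on the gene model. With the longest transcript in its place Abcb4 stood at 82.3 CPM per kilobase, above Abcc2 at 74.5 and Abcc3 at 66.1. Slco1a1 was then also above Abcc2, at 85.8 CPM per kilobase, with libraries from 44.8 to 156. In the HSC-PCK1-KO group the highest Slco1b2 value, 411, then exceeded the highest Slc10a1 value, 400 CPM per kilobase, so that order did not hold in every library.

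**Figure D1:**
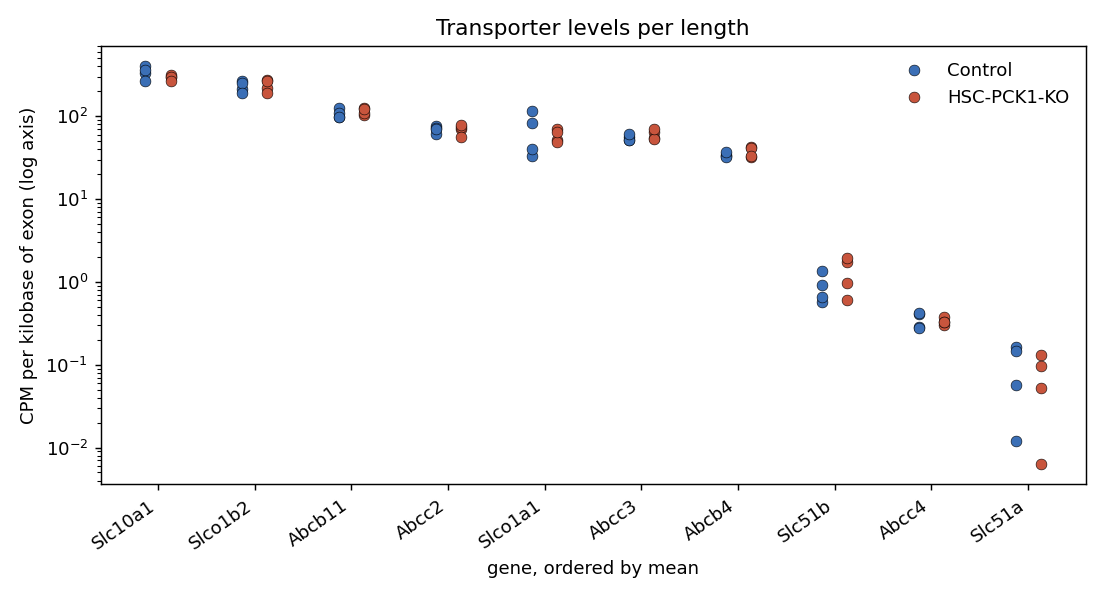
Level of each transporter gene in CPM per kilobase of exon (log axis), 1 point per library, with Control in blue and HSC-PCK1-KO in red. Of the genes, 7 lie above 30 CPM per kilobase in every library, and Slc51b, Abcc4 and Slc51a lie below 2.

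None of the 10 transporter genes passed the test of a difference between the genotypes. In edgeR's quasi-likelihood test 0 of 10 passed an adjusted p of 0.05, as did 0 of all 15669 genes tested (0%), and every transporter gene had an adjusted p of 0.9998. At an unadjusted p under 0.05 there were 0 of 10 transporter genes, beside 370 of 15669 genes (2.36%). The groups overlapped in all 10, while they did not overlap in 240 of the 15669 genes (1.53%). The log2 fold change of HSC-PCK1-KO over Control was positive for 5 members and negative for 5, with a median of 0.019, against a median of -0.0055 over all genes tested. DESeq2 and limma-voom called 0 of the 10 as well. DESeq2 called 6 of 15665 genes, none of them a transporter gene.

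The 95% intervals show how closely these data bound each difference. In 7 of the 10 (70%) the 95% interval lay within a 1.5-fold change in either direction, compared with 66.8% of all genes tested. These were Slc10a1, Slco1b2, Abcb11, Abcb4, Abcc2, Abcc3 and Abcc4. For the other three, Slco1a1, Slc51a and Slc51b, the interval reached past a 2-fold change on at least 1 side, so a difference of that size was not excluded.

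**Figure D2:**
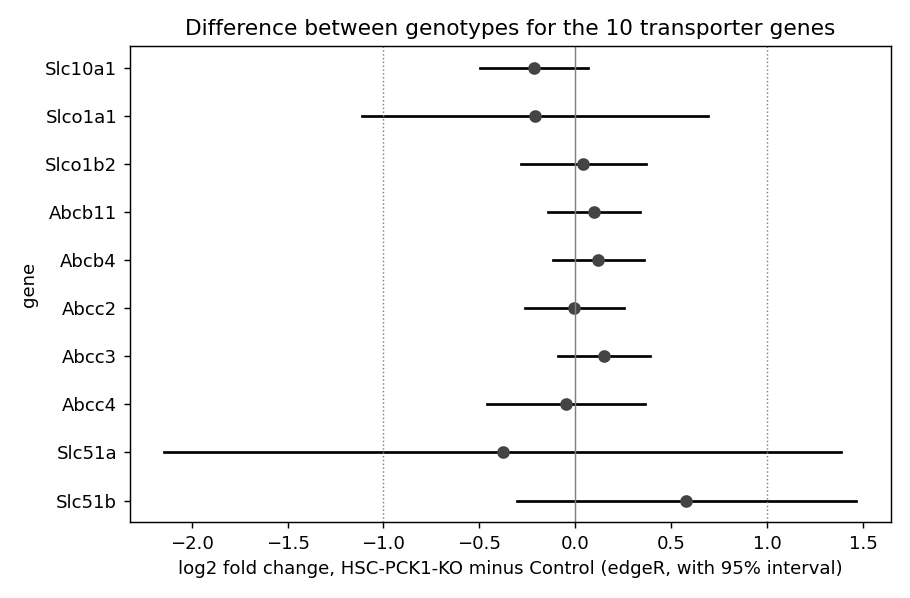
Log2 fold change of each transporter gene between HSC-PCK1-KO and Control livers (points) with its 95% interval from edgeR's quasi-likelihood fit (lines), with dotted lines at a 2-fold change. Every interval includes 0, and those of Slc51a, Slc51b and Slco1a1 are the widest.

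Among the uptake carriers, Slc10a1 had the smallest p of the 10 genes. It stood at 724, 894, 803 and 588 CPM in Control replicates 1 to 4 and at 648, 700, 651 and 595 CPM in HSC-PCK1-KO replicates 1 to 4. The first 3 Control libraries lay above all HSC-PCK1-KO libraries and Control replicate 4 lay below all of them, so the groups overlapped. The log2 fold change was -0.21 (SE 0.13), with an unadjusted p of 0.121 in edgeR and a 95% interval from 0.710-fold to 1.05-fold. It was -0.31 when Control replicate 4 was left out (unadjusted p = 0.0142, adjusted p = 0.9998, same test) and -0.12 when Control replicate 2 was left out. In bulk RNA a lower level of such a gene does not tell fewer hepatocytes from less RNA per cell.

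Slco1a1, a carrier that is far more abundant in male than in female mouse liver, varied most among the well expressed members. It stood at 175, 608, 440 and 213 CPM in Control replicates 1 to 4 and at 274, 256, 367 and 345 CPM in HSC-PCK1-KO replicates 1 to 4. The Control libraries enclosed all 4 HSC-PCK1-KO libraries, with Control replicates 1 and 4 lowest and Control replicates 2 and 3 highest, a span of 3.47-fold over the 8 libraries. Its log2 fold change was -0.21 (SE 0.39), with a 95% interval from 0.463-fold to 1.61-fold, and it was 0.17 without Control replicate 2. The SD of its log2 CPM within groups was larger than that of 93.3% of the genes tested. Of the 100-base windows of its transcripts, 0.614% also occur in Slco1a4 or Slco1a5, so few reads could be shared with those paralogs.

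Slco1b2, the mouse counterpart of the human liver OATP1B carriers, stood at 1064, 1319, 1232 and 932 CPM in Control replicates 1 to 4 and at 1360, 1081, 942 and 1299 CPM in HSC-PCK1-KO replicates 1 to 4. High and low libraries occurred in both groups, and the log2 fold change was 0.042 (SE 0.15), with a 95% interval from 0.822-fold to 1.29-fold.

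The 3 canalicular pumps varied little between livers, with spans of 1.28-fold to 1.38-fold over the 8 libraries. Abcb11 stood at 509, 653, 559 and 510 CPM in Control replicates 1 to 4 and at 540, 652, 564 and 633 CPM in HSC-PCK1-KO replicates 1 to 4. Control replicate 2 and HSC-PCK1-KO replicates 2 and 4 were highest, and the groups overlapped. Abcb4 stood at 318, 315, 304 and 349 CPM in Control replicates 1 to 4 and at 302, 401, 383 and 313 CPM in HSC-PCK1-KO replicates 1 to 4. HSC-PCK1-KO replicates 2 and 3 exceeded every Control library, and the other HSC-PCK1-KO libraries lay among the Control values or just below them. Abcc2 stood at 659, 613, 524 and 601 CPM in Control replicates 1 to 4 and at 602, 633, 484 and 670 CPM in HSC-PCK1-KO replicates 1 to 4, with means of 599 and 597 CPM. The log2 fold changes were 0.099 (SE 0.11) for Abcb11, 0.12 (SE 0.11) for Abcb4 and -0.0043 (SE 0.12) for Abcc2. With 1 library left out, the log2 fold change of Abcb11 was 0.058, 0.18 and 0.061 without Control replicates 1, 2 and 4 in turn, and 0.055 when HSC-PCK1-KO replicate 2 was left out. That of Abcb4 was 0.18, 0.049 and 0.074 without HSC-PCK1-KO replicates 1, 2 and 3 in turn. The upper ends of the 95% intervals of Abcb11, Abcb4 and Abcc2 were 1.27-fold, 1.28-fold and 1.19-fold, and the lower ends 0.907-fold, 0.921-fold and 0.833-fold. Of the transcript windows of Abcb4, 0.288% also occur in Abcb1a or in Gm35082. For Abcb11, 155 exon bases overlap exons of Gm13613 and Gm13614 on the other strand, and the sources used here do not say whether the counting used strand.

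Abcc3, which exports glucuronides to blood, was the only basolateral exporter with a high level. It stood at 320, 292, 297 and 344 CPM in Control replicates 1 to 4 and at 371, 315, 304 and 402 CPM in HSC-PCK1-KO replicates 1 to 4. HSC-PCK1-KO replicates 1 and 4 were above every Control library and the other HSC-PCK1-KO libraries were not. The log2 fold change was 0.15 (SE 0.11), with an unadjusted p of 0.192 in edgeR and a 95% interval from 0.941-fold to 1.31-fold. It was 0.074 without HSC-PCK1-KO replicate 4. Abcc4, which can export bile acids together with glutathione, stood at 2.62, 1.82, 1.75 and 2.68 CPM in Control replicates 1 to 4 and at 2.44, 1.95, 2.10 and 2.11 CPM in HSC-PCK1-KO replicates 1 to 4. The Control libraries were both the highest and the lowest of the 8, and the log2 fold change was -0.048 (SE 0.19).

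The subunits of the OST heterodimer were near the lower limit of these libraries. Slc51a had 9, 22, 22 and 2 counts in Control replicates 1 to 4 and 19, 1, 8 and 15 counts in HSC-PCK1-KO replicates 1 to 4. Slc51b had 32, 17, 22 and 50 counts in Control replicates 1 to 4 and 19, 61, 66 and 34 counts in HSC-PCK1-KO replicates 1 to 4. Libraries with the fewest Slc51a counts had many Slc51b counts, in both genotypes. In CPM, Slc51a stood at 0.301 ± 0.23 in the Control and 0.229 ± 0.17 in the HSC-PCK1-KO group, and Slc51b at 0.618 ± 0.25 and 0.928 ± 0.45 (SD, n = 4 each). The log2 fold changes were -0.38 (SE 0.78) for Slc51a and 0.58 (SE 0.40) for Slc51b, with 95% intervals from 0.227-fold to 2.61-fold and from 0.809-fold to 2.76-fold. Slc51b was at 0.81 without HSC-PCK1-KO replicate 1, at 0.87 when Control replicate 4 was left out and at 0.33 when HSC-PCK1-KO replicate 3 was. Without HSC-PCK1-KO replicate 1 its unadjusted p was 0.049 in the same edgeR test, its smallest under any alternative. In that fit 0 of 15914 genes passed an adjusted p of 0.05. Within groups, the SD of log2 CPM of Slc51a exceeded that of 99.5% of the genes tested and that of Slc51b exceeded 93.8%. Counting noise at these low counts is part of that spread, and no comparison was made with genes of like level.

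Reads of Slc51a as a share of the reads of both subunits differed between libraries by more than counting error. The share was 56.4% in Control replicate 2 (exact 95% binomial interval 39.6% to 72.2%) and 3.85% in Control replicate 4 (0.469% to 13.2%). It was 50% in HSC-PCK1-KO replicate 1 (33.4% to 66.6%) and 1.61% in HSC-PCK1-KO replicate 2 (0.0408% to 8.66%). Both genotypes thus held libraries at either end, and such intervals cover counting error only. Of the exon bases of Slc51a, 567 of 3198 lie opposite exons of Pcyt1a, a phosphatidylcholine synthesis gene at 85.8 ± 5.89 CPM in the Control group and 87.9 ± 3.57 CPM in the HSC-PCK1-KO group (SD, n = 4 each). For Slc51b, 91 of 709 exon bases lie opposite exons of Rasl12, which had 2 to 10 counts per library. Reads from opposite strands cannot be told apart unless the counting used strand, and what part they have in these low counts was not tested.

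**Figure D3:**
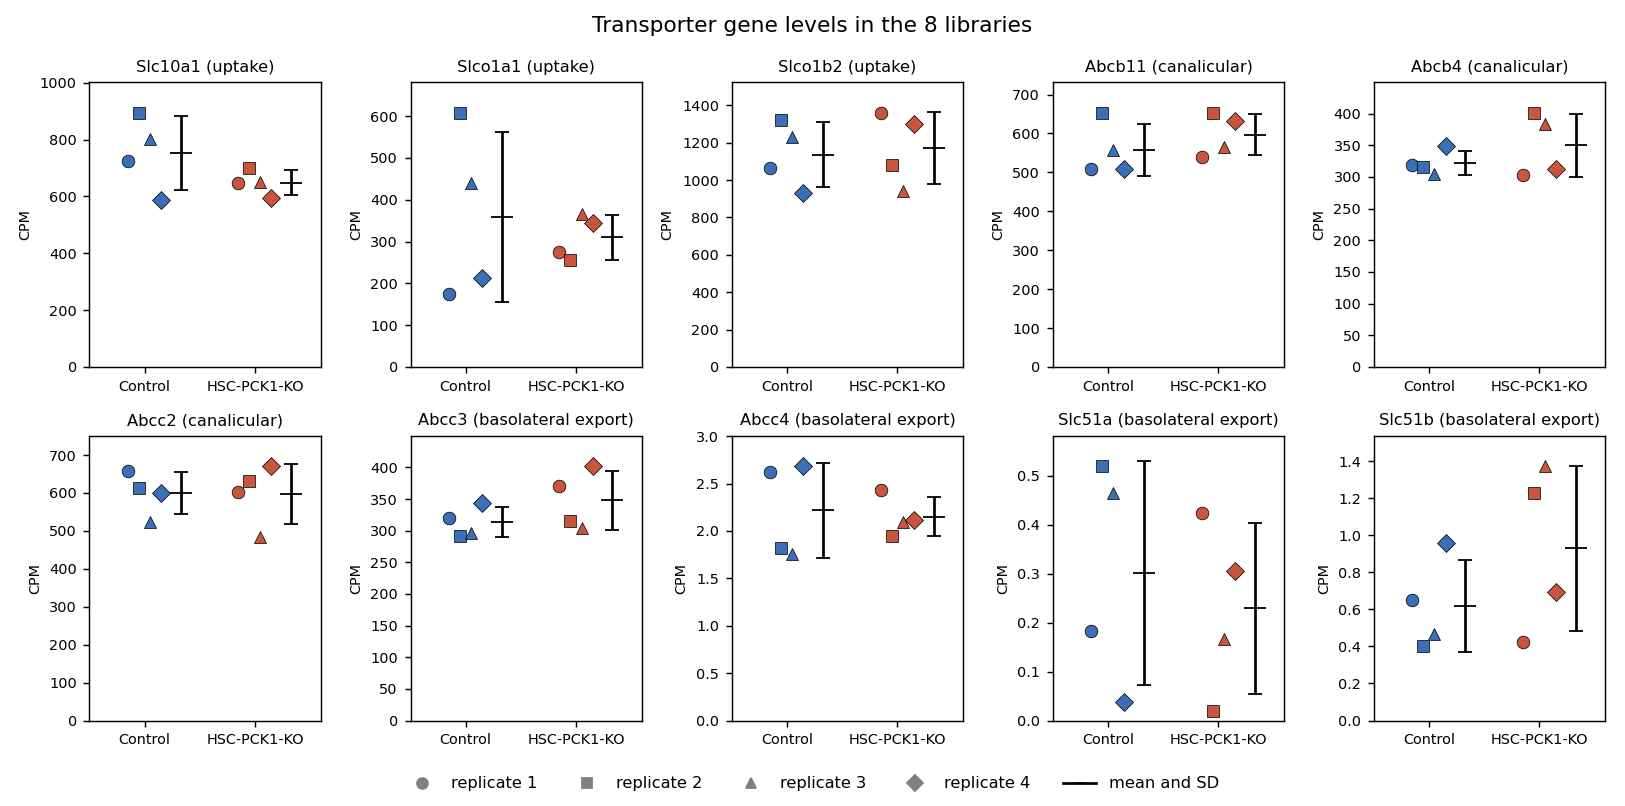
CPM of each transporter gene (linear axes from 0) in 4 Control (blue) and 4 HSC-PCK1-KO (red) libraries, with the marker shape giving the replicate number and the bar giving the mean and SD of the group. The groups overlap in all 10 panels, and Slco1a1, Slc51a and Slc51b spread most, by 3.47-fold, 25.8-fold and 3.42-fold over the 8 libraries.

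The start regions of 4 genes are shown: those of Slc51a, Slc51b and Slco1a1, the members that varied most, and that of Abcb4, whose level had the highest correlation with Slc51b. Each holds 250 bases before and 50 bases after the transcription start, from RefSeq on build GRCm38.p6, an earlier build than the one the submitters name. Slc51a is at chr16:32487830-32488129 (minus strand), Slc51b at chr9:65422724-65423023 (minus strand), Abcb4 at chr5:8893471-8893770 (plus strand) and Slco1a1 at chr6:141946913-141947212 (minus strand). Capitals mark matches on either strand to the elements named after the sequences.
Slc51a: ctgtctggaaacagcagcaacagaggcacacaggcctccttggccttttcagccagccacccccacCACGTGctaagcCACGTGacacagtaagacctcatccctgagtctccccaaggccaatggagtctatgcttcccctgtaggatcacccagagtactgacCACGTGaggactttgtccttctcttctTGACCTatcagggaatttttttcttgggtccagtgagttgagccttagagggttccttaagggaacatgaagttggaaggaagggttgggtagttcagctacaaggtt
Slc51b: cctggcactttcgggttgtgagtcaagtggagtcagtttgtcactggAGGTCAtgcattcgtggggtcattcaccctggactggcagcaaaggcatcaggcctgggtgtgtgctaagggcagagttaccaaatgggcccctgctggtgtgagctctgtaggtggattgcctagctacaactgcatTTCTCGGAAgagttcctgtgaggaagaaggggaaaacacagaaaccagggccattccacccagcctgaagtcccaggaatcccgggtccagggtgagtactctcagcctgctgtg
Abcb4: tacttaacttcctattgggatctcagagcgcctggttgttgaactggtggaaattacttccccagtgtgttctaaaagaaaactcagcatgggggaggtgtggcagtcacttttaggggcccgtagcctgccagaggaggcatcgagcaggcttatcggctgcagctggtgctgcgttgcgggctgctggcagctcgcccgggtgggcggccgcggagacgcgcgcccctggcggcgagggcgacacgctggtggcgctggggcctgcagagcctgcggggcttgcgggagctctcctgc
Slco1a1: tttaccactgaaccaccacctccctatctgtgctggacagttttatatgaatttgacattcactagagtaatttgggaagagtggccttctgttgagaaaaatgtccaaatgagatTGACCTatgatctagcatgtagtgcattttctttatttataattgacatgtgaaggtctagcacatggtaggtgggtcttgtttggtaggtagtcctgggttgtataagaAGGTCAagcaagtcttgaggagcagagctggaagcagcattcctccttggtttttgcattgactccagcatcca

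RefSeq start regions were found for 9 of the 10 genes, 11 regions in all, since Slc10a1 and Abcc4 had a pair each. The nuclear receptor core AGGTCA, which FXR, HNF4A and other receptors bind as repeats, occurred in at least 1 region of 7 of these 9 genes. Of 32851 mouse start regions of the same length, 16.3% held it. The former counts genes, some with a pair of regions, and the latter counts single regions, so these shares are not in like units. Slco1a1 had it at positions -134 and -24, counted from the start at +1, Slc51a at -58 and Slc51b at -203. The inverted repeat AGGTCANTGACCT, the direct repeat AGGTCANAGGTCA and the HNF1 palindrome GTTAATNATTAAC matched none of the 11, and they occur in 0.009%, 0.040% and 0.009% of all start regions. The AGGTCA core forms part of both repeats. The STAT5 element TTCNNNGAA (8.30% of all start regions) was found in Slc51b at -65 and also in Slc10a1, Slco1b2 and Abcc4. The antioxidant response core TGACNNNGC (12.4%) was found in Abcc2 and Abcc4. Slc51a held the E-box CACGTG 3 times, at -184, -172 and -85, and Abcc4 held it once, at -205, a palindrome counted once per site. Of all start regions 7.15% held at least 1 E-box and 0.0883% held 3 or more. Abcb4 matched none of these elements. A match to these letters is no evidence that a factor binds there.

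The spread between livers was also compared between transporter genes. Over the 45 pairs, Pearson's r of log2 CPM across the 8 libraries ranged from -0.84 to 0.92. In 9 pairs the unadjusted exact permutation p was under 0.05, and after adjustment over the 45 pairs 0 pairs passed, with the smallest adjusted p at 0.0714. How often pairs of other genes reach such values in these 8 libraries was not tested. Abcb4 and Slc51b had the highest r, 0.92 (exact permutation p = 0.00159, adjusted p = 0.0714), with Spearman's rho of 0.79 (exact permutation p = 0.0279, adjusted p = 0.229). It was 0.83 without HSC-PCK1-KO replicates 2 and 3, the libraries farthest from the median of Abcb4 (exact permutation p = 0.0375, adjusted p = 0.422). With 6 libraries there are few pairings and a narrower span. Adjusted p over the 45 pairs could therefore hardly pass in that form, here and for the pairs below.

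The OST subunits themselves went in opposite directions. Slc51a and Slc51b had an r of -0.82 (exact permutation p = 0.0133, adjusted p = 0.160) and a rho of -0.88 (exact permutation p = 0.00724, adjusted p = 0.229). Without Control replicate 4 and HSC-PCK1-KO replicate 2 the r was -0.87 (exact permutation p = 0.0125, adjusted p = 0.344). Slco1b2 and Slc51b had an r of -0.83 (exact permutation p = 0.0178, adjusted p = 0.160) and a rho of -0.76 (exact permutation p = 0.0368, adjusted p = 0.229). For deviations from the group means their r was -0.95 (permutation p = 5.7e-04, adjusted p = 0.0257), the only pair of the 45 to pass in that form. The permutation p is not exact for such deviations. For log2 CPM itself, the r was -0.72 without Control replicate 4 and HSC-PCK1-KO replicate 3 (exact permutation p = 0.108, adjusted p = 0.531). Slco1a1 and Abcc4 had an r of -0.84 (exact permutation p = 0.00997, adjusted p = 0.160) and a rho of -0.81 (exact permutation p = 0.0218, adjusted p = 0.229), and without Control replicates 1 and 2 the r was -0.77 (exact permutation p = 0.0722). The opposite run of Slco1a1 and Abcc4 was seen among the Control libraries, while the 4 HSC-PCK1-KO libraries, which span less in both genes, showed no clear order. The low counts of Slc51a and Slc51b add counting noise to each relation that involves them.

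**Figure D4:**
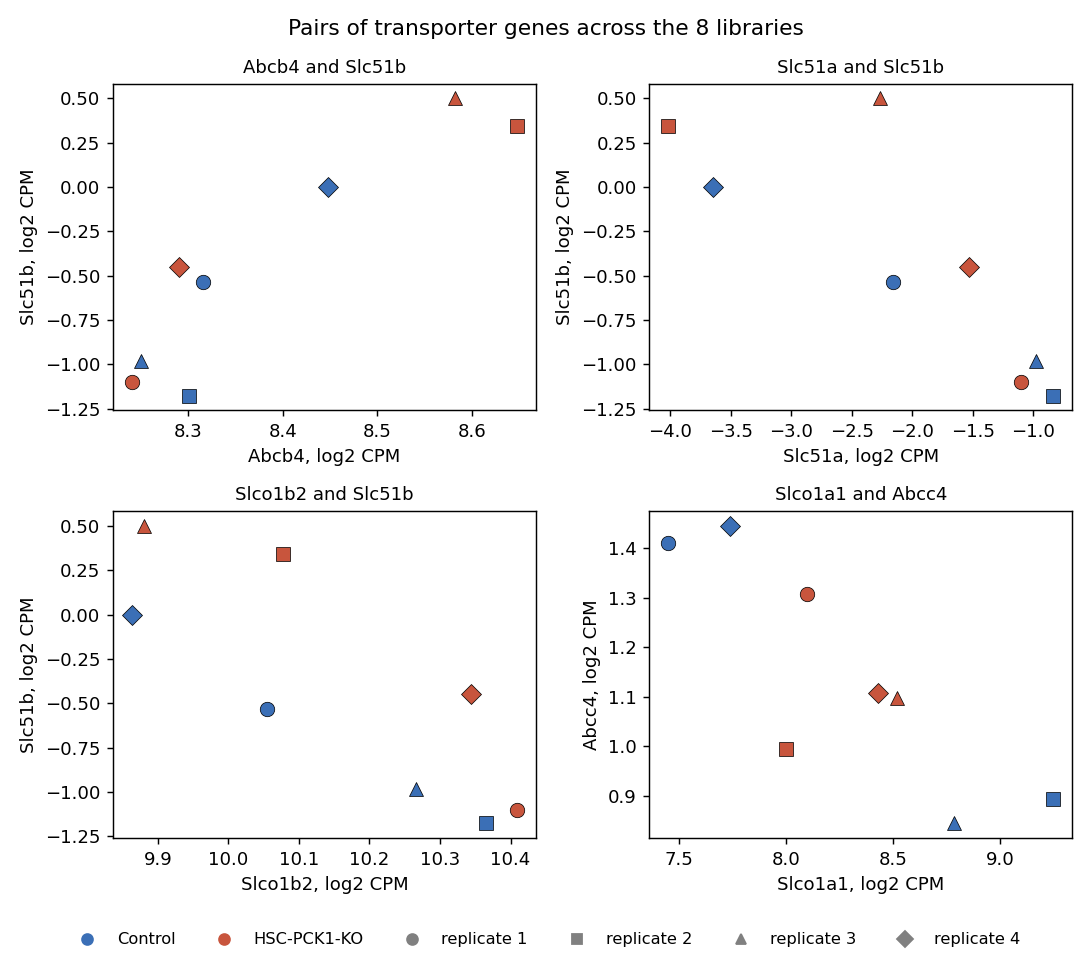
Log2 CPM of 4 pairs of transporter genes, 1 point per library, with colour for genotype and marker shape for replicate number. Abcb4 and Slc51b rise together, and the other 3 pairs run in opposite directions. For Slco1a1 and Abcc4 the ends of the trend are Control libraries.

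For the 3 members that varied most, the genes with the most similar profile were sought among 11577 genes with a mean of at least 1 CPM (11576 for Slco1a1), as the highest Pearson's r of log2 CPM over 8 libraries. Being the highest of so many, these values only describe the 8 libraries. For Slc51a they were Bbof1, Zfp697, AW495222 and Ulk4, with r from 0.972 to 0.988. For Slc51b they were Oser1, Tatdn2, Cyth3 and Hlx, with r from 0.943 to 0.957. For Slco1a1 they were Mup16, a major urinary protein, Cps1, the first enzyme of the urea cycle, Tfdp2 and Slc22a4, an organic cation carrier, with r from 0.963 to 0.976. Cps1 stood at 2845 ± 1049 CPM in the Control group and 2674 ± 267 CPM in the HSC-PCK1-KO group (SD, n = 4 each), and so, like Slco1a1, spread more widely among the Control libraries.

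In 5 lists of genes that surround these transporters in bile acid handling, 0 genes passed an adjusted p of 0.05 in edgeR. Of 19 other hepatocyte membrane transporters, 8 had a positive and 11 a negative log2 fold change (median -0.047). An unadjusted p under 0.05 in edgeR was found for 1 of the 19, beside 2.36% of all genes tested. Abcc6, a liver efflux transporter, stood at 233 ± 28.5 CPM in the Control group and 225 ± 9.09 CPM in the HSC-PCK1-KO group, and Slco2b1, an organic anion carrier, at 204 ± 12.97 and 197 ± 8.98 CPM (SD, n = 4 each). Atp7b, the copper pump that loads copper into bile, had the smallest p of that list. It stood at 42.8 ± 1.73 CPM in the Control group and 38.0 ± 2.48 CPM in the HSC-PCK1-KO group. Its groups did not overlap, as was so for 1.53% of all genes tested. Its log2 fold change was -0.17 (SE 0.068), with an unadjusted p of 0.0286 and an adjusted p of 0.9998 in edgeR. Abca1, which loads cholesterol onto apolipoprotein A-I, had a log2 fold change of -0.15 (SE 0.087).

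Of 17 bile acid sensors and transcription factors, 14 were tested and 0 passed, with 5 positive and 9 negative log2 fold changes (median -0.024). Fgf15, the gut hormone that reports ileal bile acids to the liver, had 0 counts in all 8 libraries, and Vdr and Gpbar1 were too low to test. Rxra, the partner of FXR, and Hnf4a, a master regulator of hepatocyte genes, stood at 543 ± 86.7 and 532 ± 77.7 CPM in the Control group and 509 ± 26.6 and 503 ± 35.4 CPM in the HSC-PCK1-KO group (SD, n = 4 each). Nr1i3, the xenobiotic receptor CAR that is known to act on Abcc2 and Abcc3, stood at 273 ± 44.4 and 306 ± 56.6 CPM. Nr1h3, the oxysterol receptor LXR alpha, and Ppara had log2 fold changes of 0.18 (SE 0.11) and -0.15 (SE 0.12).

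Among 15 genes of bile acid synthesis and conjugation 0 passed, with 8 positive and 7 negative (median 0.0050). Scp2, a sterol carrier, stood at 3714 ± 281 CPM in the Control group and 3949 ± 200 CPM in the HSC-PCK1-KO group, and Slc27a5, which activates bile acids for conjugation, at 995 ± 114 and 956 ± 119 CPM (SD, n = 4 each). Cyp8b1, the sterol 12-hydroxylase that sets the share of cholic acid, stood at 664 ± 124 and 537 ± 85.2 CPM, a log2 fold change of -0.30 (SE 0.15) with an unadjusted p of 0.0738 and an adjusted p of 0.9998 in edgeR. Cyp7a1, the rate-limiting enzyme of bile acid synthesis, stood at 91.1 ± 39.6 and 56.2 ± 24.5 CPM, a log2 fold change of -0.70 (SE 0.43) with an adjusted p of 0.9998 in edgeR.

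Of 14 genes of the canalicular membrane scaffold and its trafficking 0 passed, with 8 positive and 6 negative (median 0.010). Rdx, the radixin that tethers canalicular proteins to actin, stood at 181 ± 11.9 CPM in the Control group and 198 ± 19.4 CPM in the HSC-PCK1-KO group, Ceacam1 at 156 ± 17.2 and 157 ± 7.91 CPM, and Slc9a3r1, a scaffold protein, at 140 ± 26.6 and 150 ± 14.7 CPM (SD, n = 4 each). Anpep, a canalicular peptidase, and Rab11a, a trafficking GTPase, had log2 fold changes of -0.19 (SE 0.092) and 0.099 (SE 0.064). Pdzk1 was the single gene of this list whose groups did not overlap, at 82.0 ± 3.87 and 77.1 ± 1.63 CPM, and was named for that after its values were seen. Its unadjusted p was 0.173 and its adjusted p 0.9998 in edgeR, and 1.53% of all genes tested had groups without overlap. Of the 8 male-biased hepatocyte genes 0 passed, with 4 in each direction (median -0.13). Mup20, Cyp2d9 and Nudt7 were the most abundant, and Selenbp2 had a log2 fold change of -1.04 (SE 0.98).

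**Figure D5:**
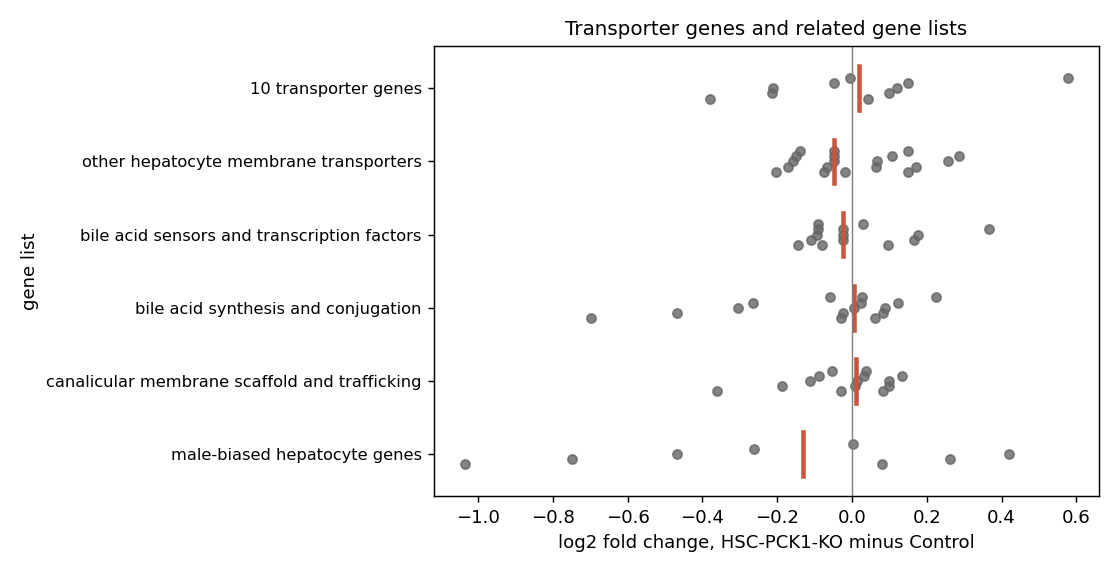
Log2 fold change between HSC-PCK1-KO and Control livers for the 10 transporter genes and the tested genes of 5 related lists, 1 point per gene, with a red line at the median of each list. The medians lie between -0.13 and 0.019.

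Other liver cells also carry some of these transporters, and their markers were measured beside them. Cholangiocytes, the bile duct cells, are known to express Slc51a, Slc51b and Abcc3. Of the cholangiocyte list, 10 of 10 genes had a count in every library, and their summed level was 32.3 to 38.8 CPM in Control and 28.5 to 38.5 CPM in HSC-PCK1-KO libraries. Krt19, their keratin, stood at 0.918 ± 0.20 CPM in the Control group and 0.604 ± 0.13 CPM in the HSC-PCK1-KO group (SD, n = 4 each), a log2 fold change of -0.61 (SE 0.25) with an unadjusted p of 0.0333 and an adjusted p of 0.9998 in edgeR, while Epcam had a log2 fold change of 0.20 (SE 0.23). The summed hepatocyte list stood at 94002 to 114927 and 93823 to 112818 CPM, the stellate cell list at 347 to 440 and 295 to 370 CPM, the macrophage list at 300 to 501 and 267 to 483 CPM and the sinusoidal endothelial list at 196 to 225 and 178 to 238 CPM. The ranges of the 2 groups overlapped for all 5 lists, and every gene of these lists had counts in all 8 libraries. The median log2 fold change was 0.0033 for the hepatocyte, 0.033 for the cholangiocyte, -0.13 for the stellate cell, -0.12 for the macrophage and -0.010 for the sinusoidal endothelial list. What part such cells have in the levels of Slc51a, Slc51b and Abcc3 was not tested.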

How the data were processed

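Per the labels' protocols, RNA from snap-frozen liver was enriched for mRNA with oligo(dT) beads and made into strand-specific paired-end libraries. The authors deposited raw counts per gene, whole numbers without normalization. Per the submitters' processing notes the build was GRCm39 and R 4.3.2 was used. For the aligner, counting tool, annotation and strand setting: not given in the sources used here. Symbols for 52029 of 56953 identifiers, and gene lengths, came from GENCODE M21, an annotation of GRCm38.

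Genes were filtered with filterByExpr and tested with edgeR 4.0.16 in R 4.3.3 (quasi-likelihood F-test, robust, TMM factors, genotype as the only term), with Benjamini-Hochberg adjustment over 15669 genes and a threshold of 0.05. Log2 CPM used a prior count of 2. Correlations used exact two-sided permutation over all pairings of 8 libraries. Alternatives were RLE factors, other filters, DESeq2 1.42.0, limma 3.58.1 (voom with sample weights), a replicate block, leaving out each library and another gene length.

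The members and lists were chosen with earlier results of these data known. Named genes were the 10 members, Pck1, the 3 most abundant genes and the 2 with the smallest p of each related list, and 4 genes most similar in profile to each of the 3 most variable members. Others named were chosen after their values were seen. One gene that this rule names is not reported here. Over all genes tested, log2 fold changes had a median SE of 0.13. Libraries of 1 group differed from each other by far more than counting noise (a chi-square of 44.4 to 168 per degree of freedom).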

Additional observations from a re-analysis of the deposited data

Results flagged for a closer look

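No transporter gene had a library far from the other 3 of its group, in 20 groups examined. Of 110 such groups over 55 genes, 3 had 1, where chance gives 5.5. The 55 were the members, Pck1 and the genes picked by level or p from each related and cell marker list. Not all of them are named in the text. Ppara stood at 84.0 CPM in Control replicate 3 and at 101 to 104 CPM in the other Control libraries. Ceacam1 stood at 181.5 CPM in Control replicate 2 and at 145 to 150 CPM in the others. Reln, a stellate cell marker, stood at 42.9 CPM in HSC-PCK1-KO replicate 1 and at 59.0 to 62.3 CPM in the other HSC-PCK1-KO libraries.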

How the results depend on the processing

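Of 138 log2 fold changes of the 10 transporter genes under alternatives, 126 kept their direction and 0 passed an adjusted p of 0.05. Slc10a1, Abcb11, Abcb4, Abcc3 and Slc51b kept their direction in all that were run, and with a library left out Abcb11 ranged from 0.055 to 0.18, Abcb4 from 0.049 to 0.18 and Abcc3 from 0.074 to 0.21. With a library left out, Slco1a1 ranged from -0.44 to 0.17, Slco1b2 from -0.040 to 0.13, Abcc2 from -0.064 to 0.083, Abcc4 from -0.14 to 0.059 and Slc51a from -0.84 to 0.0087. Abcc2 was at 0.0014 in limma-voom. The cause of these turns was not tested. With a library left out, 0 to 1 transporter genes had an unadjusted p under 0.05 (Slc10a1 without Control replicate 4, Slc51b without HSC-PCK1-KO replicate 1). Over all genes 0 to 1 passed (1 without Control replicate 1), and DESeq2 called 6. Requiring 1 CPM or more in 4 libraries removed Slc51a and Slc51b. Replicate numbers did not pair the libraries, since correlations of deviations between same-numbered libraries were -0.33 to 0.058. With the replicate block 0 transporter genes and 0 of all genes passed. With the longest transcript the levels were 400.5 for Slc10a1, 348.8 for Slco1b2, 82.3 for Abcb4 and 66.1 CPM per kilobase for Abcc3. For deviations from the group means 1 of the 45 pairs passed, Slco1b2 with Slc51b, at an r of -0.95, by a permutation p that is not exact in that form. Depth limits Slc51a, with 1 to 22 counts.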

Other observations

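The level of Slco1a1 was compared with 8 other male-biased hepatocyte genes across the 8 libraries, in relations chosen after its values were seen. Of the 8 relations, 4 passed an adjusted p of 0.05 by Pearson's r and 2 by Spearman's rho (exact permutation tests). The adjustment was over these 8 relations only. Genes outside the list had a higher r with Slco1a1 than any listed gene, such as Cps1 at 0.973, Tfdp2 at 0.966 and Slc22a4 at 0.963 (log2 CPM). Whether the list stands apart from genes in general was not tested. Its level was low in Control replicates 1 and 4 and high in Control replicates 2 and 3, and the 8 listed genes all had a positive Pearson's r with it, on the scale of log2(CPM + 0.05). Elovl3 (r = 0.44), Cyp4a12a (r = 0.58), Mup20 (r = 0.66) and Cyp2d9 (r = 0.75) did not pass. Their exact permutation p before adjustment were 0.272, 0.134, 0.0783 and 0.0314, and the adjusted p of Cyp2d9 was 0.0502. Nudt7 passed by Pearson's r, at 0.79 (exact permutation p = 0.0203, adjusted p = 0.0407). The highest were Hsd3b5, a male-specific hydroxysteroid dehydrogenase (r = 0.90, exact permutation p = 0.00238, adjusted for 8 relations p = 0.0132, rho = 0.86, exact permutation p = 0.0107, adjusted p = 0.0429), Cyp7b1, an oxysterol hydroxylase (r = 0.88, exact permutation p = 0.00399, adjusted p = 0.0132, rho = 0.88, exact permutation p = 0.00724, adjusted p = 0.0429), and Selenbp2 (r = 0.88, exact permutation p = 0.00496, adjusted p = 0.0132, rho = 0.81, exact permutation p = 0.0218, adjusted p = 0.0581). Without Control replicates 1 and 2, the libraries farthest from the median of Slco1a1, these r were 0.72, 0.59 and 0.69, with exact permutation p of 0.119, 0.213 and 0.138 (adjusted p of 0.444 for each). None of the 8 relations passed with these 6 libraries, which span less of Slco1a1. For deviations from the group means the r were 0.91, 0.88 and 0.90.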
